A study of Mus musculus with 8 samples.

Results

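The 10 genes described here carry peptides to the cell surface on class I molecules of the major histocompatibility complex (MHC): the immunoproteasome subunits Psmb8, Psmb9 and Psmb10, the transport and loading genes Tap1, Tap2 and Tapbp, the class I chains H2-K1, H2-D1 and B2m, and the regulator Nlrc5. They were taken by symbol from the 55401 genes of the count table, all 10 were found, and all 10 passed the filter on low counts.

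Polyadenylated RNA was sequenced in 8 liver libraries from mouse hosts of human colorectal cancer xenografts grown under the skin. The first group was 4 libraries from hosts of Colo201, the line that the series gives as high in FGF19, and the second was 4 libraries from hosts of HCT116, given as low in FGF19. FGF19 is a gut hormone that represses bile acid synthesis in liver, and the series asked how the liver transcriptome differs between the 2 kinds of host. Each line is 1 human cell line, so a difference between the groups is a difference between hosts of these 2 lines and not of FGF19 alone. Colo201 2L and 2R and HCT116 1L and 1R were labelled male, and Colo201 4L and 4R and HCT116 3L and 3R were labelled female. All hosts, the HCT116 group included, were NOD scid gamma mice, a NOD strain with a defective Prkdc gene and no working Il2rg gene, which lacks mature T, B and natural killer cells. The sources used here give no age, tumour size or time of collection. No label says whether L and R of a title number are separate animals, so the p-values reflect only library-to-library spread, part of which may be technical. Each combination of line and sex label is 1 title number, so a comparison of the lines within a label sets 1 title number against 1.

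The totals were 61347603 to 65457482 estimated counts per library. Hepatocyte markers were all detected and summed to 141506 to 182999 CPM (counts scaled to library size) in Colo201 and 117946 to 154482 CPM in HCT116, which fits the labelled tissue. Of 9 T cell markers 6 stood at 0 in every library, among them Cd3e, Cd8a, Trac and Trbc2, and so did Klre1, Gzma and Gzmb of 8 natural killer cell markers. Il2rg itself stood at 0 to 0.405 CPM. The sex labels ran opposite to the sex chromosome genes: Xist ranged over 252 to 366 CPM in Colo201 2L and 2R and HCT116 1L and 1R, labelled male, and over 0.274 to 0.813 CPM in the others. The label is therefore used only as a name for these sets of libraries.

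As background, the proteasome cuts proteins in the cytosol into peptides, and in cells exposed to interferon the subunits Psmb8, Psmb9 and Psmb10 take the places of the constitutive catalytic subunits Psmb5, Psmb6 and Psmb7. Tap1 and Tap2 form the pump that moves peptides into the endoplasmic reticulum, where Tapbp, or tapasin, holds the empty class I molecule at the pump while it is loaded. The class I molecule is a heavy chain such as H2-K or H2-D bound to beta-2-microglobulin, the product of B2m, and Nlrc5 is the transactivator that acts at class I promoters. Hepatocytes express class I at modest levels, and liver endothelial cells and Kupffer cells, the resident macrophages, also carry it. NOD mice have another H2 haplotype than the C57BL/6 strain of the reference genome, so reads of the polymorphic H2 genes may be lost or shared between relatives, and the effect on their values was not tested.

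Of the 10 genes, 7 lie on chromosome 17 in the MHC, and Psmb9, Tap1, Psmb8 and Tap2 lie side by side within 34.3 kb, at 34181987 to 34216321 of chromosome 17 in GRCm38. The others are B2m on chromosome 2, at 122147686 to 122153083 on the plus strand, and Psmb10 and Nlrc5 on chromosome 8. Psmb9 runs on the minus strand and Tap1 on the plus strand from a shared promoter, with 225 bases between their RefSeq starts. In the GENCODE gene models the ends of the 2 genes overlap by 212 bases, and since the strand setting of the counting is not given, reads there may have been given to either gene. Promoter windows of 8 of the 10 genes were matched in the RefSeq table for GRCm38.p6. Tap2 and Nlrc5 are named only.

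The shared Psmb9 and Tap1 window is shown because its 2 genes gave different results between the lines, and the windows of H2-K1 and H2-D1 because these near relatives also differed in their values. The first is chr17:34187331-34187555 on the plus strand, the second chr17:34000348-34000597 on the minus strand and the third chr17:35262844-35263093 on the plus strand, all GRCm38.p6 and RefSeq. In the GENCODE gene models, which start farther out, the first lies inside Psmb9 (34181987 to 34187764) and the third inside H2-D1 (35262730 to 35267499), and the second lies just before the start of H2-K1. Capitals mark matches, on either strand, to 5 motifs: the interferon regulatory factor core AANNGAAA, the gamma-activated sequence TTCNNNGAA, the kappaB core of enhancer A GGGATTCCC, the cAMP response core TGACG and the CCAAT box CCAAT.
Psmb9 and Tap1: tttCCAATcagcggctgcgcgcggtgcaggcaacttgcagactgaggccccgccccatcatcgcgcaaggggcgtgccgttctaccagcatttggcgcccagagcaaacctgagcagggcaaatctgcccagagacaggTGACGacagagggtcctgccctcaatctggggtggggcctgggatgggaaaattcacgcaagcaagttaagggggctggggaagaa
H2-K1: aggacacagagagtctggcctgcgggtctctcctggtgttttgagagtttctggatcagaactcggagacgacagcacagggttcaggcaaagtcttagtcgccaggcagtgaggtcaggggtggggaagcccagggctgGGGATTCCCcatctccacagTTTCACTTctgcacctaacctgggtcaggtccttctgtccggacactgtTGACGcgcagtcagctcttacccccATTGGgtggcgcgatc
H2-D1: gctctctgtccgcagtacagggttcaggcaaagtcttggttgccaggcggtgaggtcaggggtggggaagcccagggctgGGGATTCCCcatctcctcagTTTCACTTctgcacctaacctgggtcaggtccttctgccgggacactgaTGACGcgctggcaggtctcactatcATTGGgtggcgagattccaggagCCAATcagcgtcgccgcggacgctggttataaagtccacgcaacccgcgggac
The shared Psmb9 and Tap1 window held 1 TGACG and 1 CCAAT. The H2-K1 and H2-D1 windows each held the kappaB core, the interferon regulatory factor core as TTTCACTT, TGACG and CCAAT, and 170 of 190 aligned bases (89.5%) were identical between them. Of 32851 promoter windows of 250 bases in the table, 21.3% held AANNGAAA, 7.02% TTCNNNGAA, 0.301% GGGATTCCC, 17.8% TGACG and 33.8% CCAAT. The B2m window held AANNGAAA, TGACG and CCAAT but not GGGATTCCC, and among the members' windows only that of Psmb8 held TTCNNNGAA. A match describes letters and is not a binding site, and the absence of one says only that these letters are not in the window.

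Levels between genes were compared in FPKM, the authors' values per length, as means over the 8 libraries. B2m stood far above the rest at 1964 FPKM, and H2-D1 followed at 287 FPKM and H2-K1 at 28.5 FPKM, with no overlap between the libraries' ranges of these 3 genes. H2-D1 and H2-K1 carry the limit of the reference haplotype given above, so their order may not be one of RNA level. Psmb10 averaged 19.4, Tapbp 14.5, Tap2 13.9 and Psmb8 8.89 FPKM. H2-K1 was above Psmb10 in 5 of 8 libraries, Psmb10 above Tapbp in 6 and Tapbp above Tap2 in 4, so these neighbours did not separate. Psmb9 at 2.99, Tap1 at 2.05 and Nlrc5 at 1.99 FPKM were the lowest, and all libraries of Psmb8 lay above all of Psmb9. Tap2 exceeded its partner Tap1 6.66 to 8.32 times in Colo201 and 5.10 to 6.65 times in HCT116.

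Between the lines, Psmb9 and Tap2 were higher in Colo201 livers and no other gene of the 10 passed the test. The fit was edgeR's quasi-likelihood test on all 16191 genes that passed the filter, with sex label as a covariate and Benjamini-Hochberg adjustment at 0.05. It called 2 of 10 members higher and 0 lower, where 5.73% of all genes tested were called, 2.85% higher and 2.88% lower. At an unadjusted p under 0.05 there were 6 of 10 members, against 23.2% of all genes. These went both ways, with Psmb8, Psmb9, Tap2 and B2m higher in Colo201 and H2-K1 and Nlrc5 lower. The 2 called members were also the ones whose libraries did not overlap between the lines, both higher, against 13.0% of all genes without overlap and 6.34% higher. The members' median log2 fold change was 0.23, with 7 positive and 3 negative, against -0.0032 over all genes tested. The 10 genes were chosen with earlier results of these data known, so these shares describe them and are not a test of the set.

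**Figure D1:**
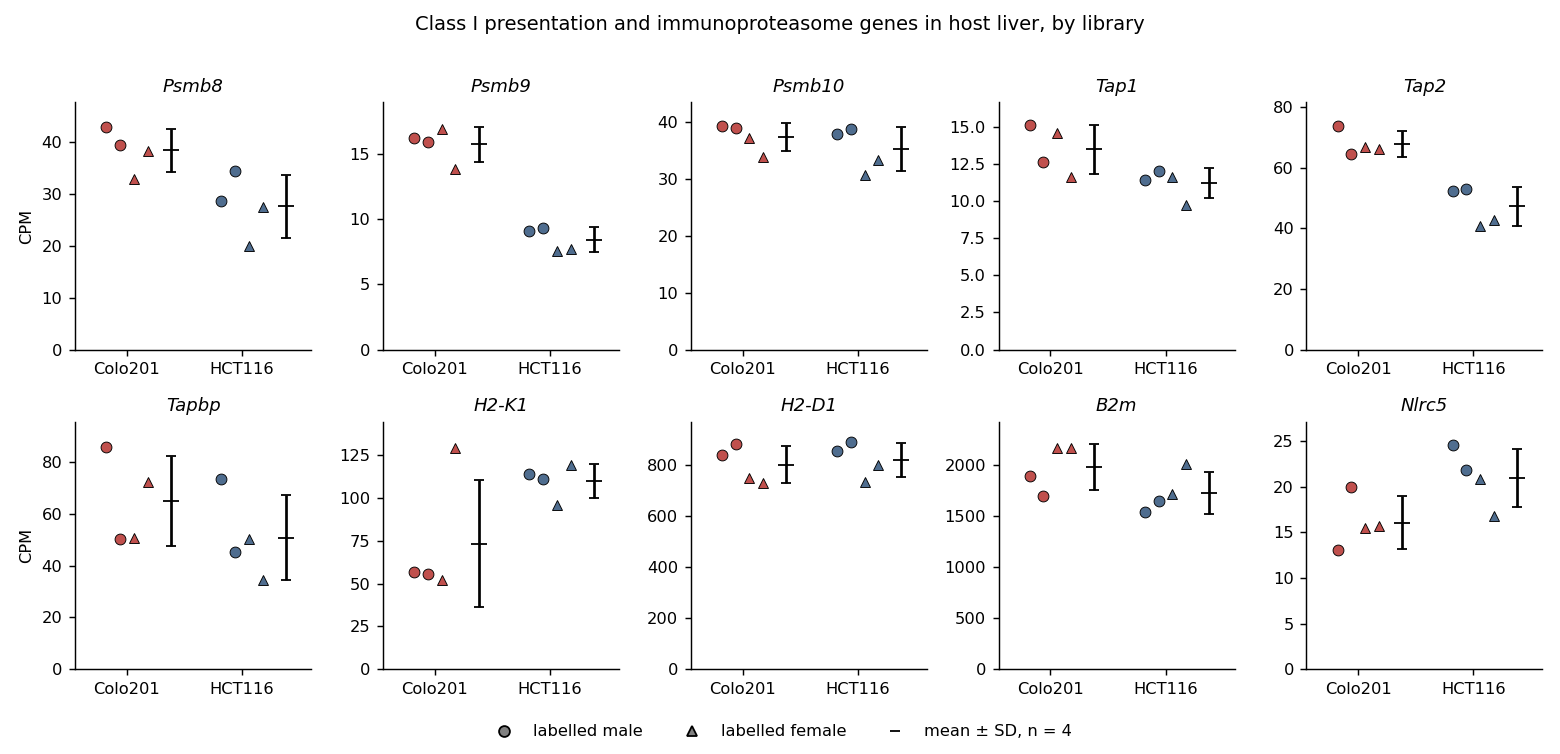
CPM (TMM-scaled, linear axes from 0) of the 10 genes in each library, with Colo201 on the left and HCT116 on the right of each panel, circles for libraries labelled male, triangles for those labelled female, and bars for the mean ± SD of 4 libraries. Psmb9 and Tap2 separate the lines, and H2-K1 in Colo201 4R stands at 129 CPM, apart from the other 3 Colo201 libraries at 51.9 to 56.9 CPM.

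Psmb9, the subunit that replaces Psmb6, had 16.2, 15.9, 16.9 and 13.8 CPM in Colo201 2L, 2R, 4L and 4R, against 9.11, 9.32, 7.53 and 7.69 CPM in HCT116 1L, 1R, 3L and 3R. The lowest Colo201 library was well above the highest HCT116 library, with means of 15.7 ± 1.32 CPM in Colo201 and 8.41 ± 0.932 CPM in HCT116 (SD, n = 4 each). It rose 1.87-fold, or 0.91 on the log2 scale (SE 0.10, adjusted p = 0.00509, edgeR), and passed with any 1 library left out (adjusted p = 0.0139 to 0.0265). With the libraries of a title number summed, which leaves 1 residual degree of freedom, it was 0.92 and did not pass (adjusted p = 0.136, edgeR). Within the libraries labelled male the log2 fold change was 0.80 (adjusted p = 0.101, edgeR) and within those labelled female 1.01 (adjusted p = 0.0417, edgeR), a call that was lost with any 1 library left out.

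Psmb8, which replaces Psmb5, had 43.0, 39.4, 33.0 and 38.3 CPM in the Colo201 libraries in the same order, against 28.6, 34.5, 19.9 and 27.5 CPM in the HCT116 libraries. The groups overlapped through Colo201 4L and HCT116 1R. Its log2 fold change of 0.49 (SE 0.13) missed the threshold in edgeR (adjusted p = 0.0646) and passed in DESeq2 (adjusted p = 0.0126). Psmb10, which replaces Psmb7, had 39.3, 38.9, 37.3 and 33.9 CPM in Colo201, against 38.0, 38.8, 30.7 and 33.4 CPM in HCT116. Its log2 fold change was 0.09 (SE 0.08, adjusted p = 0.55, edgeR), and the groups overlapped over most of their range. The 3 immunosubunits thus had 1 called gene and 2 that did not pass.

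Each immunosubunit was also set against the constitutive subunit whose place it takes, as a ratio of FPKM. An exact two-sided permutation test was run over the 70 assignments of 4 and 4 libraries, whose smallest p is 0.0286. The assignments ignore the sex label and the shared title numbers of L and R. Psmb9 over Psmb6 was 0.0755, 0.0775, 0.0749 and 0.0663 in the Colo201 libraries, against 0.0492, 0.0509, 0.0388 and 0.0345 in the HCT116 libraries. All Colo201 ratios lay above all HCT116 ratios, with a difference of 0.78 on the log2 scale (exact permutation p = 0.0286, adjusted over the 3 ratios 0.0857). After adjustment this ratio could not pass 0.05 unless another ratio also reached the smallest p. The ratio of Psmb8 to Psmb5 differed by 0.39 (exact permutation p = 0.286, adjusted 0.371) and that of Psmb10 to Psmb7 by 0.18 (exact permutation p = 0.371, adjusted 0.371), and in both the groups overlapped. Psmb8 over Psmb5 split more by sex label than by line, at 0.232 to 0.26 in the 4 libraries labelled male and 0.0999 to 0.186 in the 4 labelled female. The constitutive subunits themselves had log2 fold changes of 0.11 for Psmb5, 0.13 for Psmb6 and -0.08 for Psmb7 between the lines (edgeR adjusted p = 0.56, 0.389 and 0.642), so none passed.

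**Figure D2:**
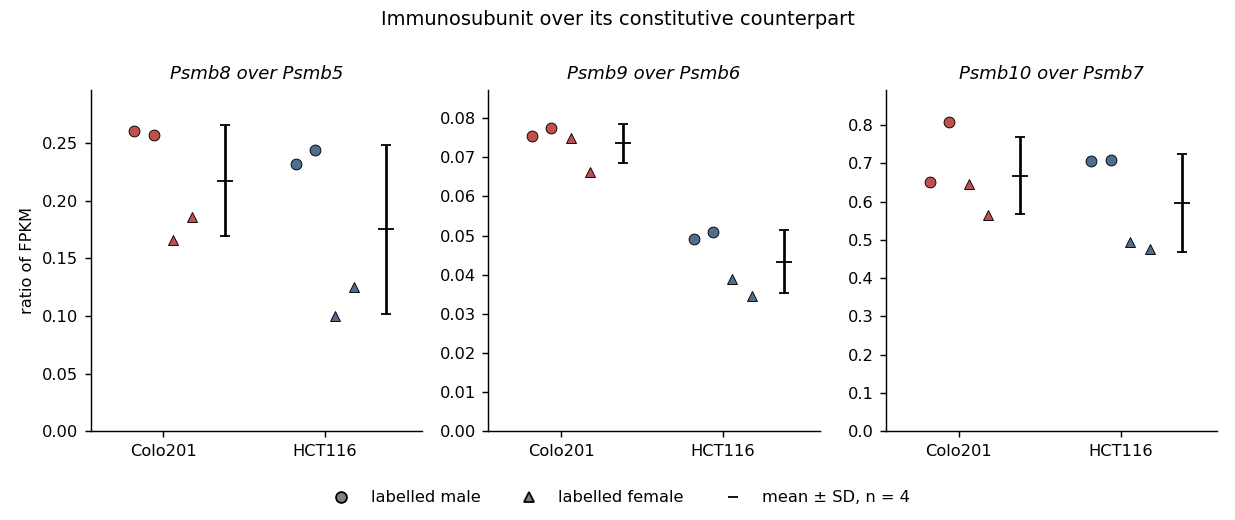
Ratio of the FPKM of each immunosubunit to its constitutive counterpart in each library (linear axes from 0), Colo201 left and HCT116 right, circles labelled male, triangles labelled female, bars mean ± SD of 4. Psmb9 over Psmb6 averages 0.0735 in Colo201 and 0.0434 in HCT116 without overlap, and the other ratios overlap.

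Tap2 had 73.9, 64.6, 66.7 and 66.2 CPM in Colo201 2L, 2R, 4L and 4R, against 52.5, 52.9, 40.9 and 42.8 CPM in HCT116 1L, 1R, 3L and 3R. Every Colo201 library was above every HCT116 library, with means of 67.8 ± 4.13 CPM in Colo201 and 47.3 ± 6.28 CPM in HCT116 (SD, n = 4 each). It rose 1.44-fold, or 0.53 on the log2 scale (SE 0.09, adjusted p = 0.019, edgeR). Leaving out 1 library ended the call in 5 cases, with an edgeR adjusted p of 0.0551 without Colo201 2L, 0.0558 without 4L, 0.0536 without HCT116 1L, 0.0517 without 1R and 0.0666 without 3L. With title numbers summed it was 0.54 (adjusted p = 0.16, edgeR). Within a sex label it did not pass, at 0.39 among libraries labelled male (adjusted p = 0.221, edgeR) and 0.67 among those labelled female (adjusted p = 0.0603, edgeR). Among the libraries labelled female it passed in DESeq2 (adjusted p = 0.000912), limma voom (0.0453), edgeR on counts divided by 4 (0.0494) and limma on FPKM (0.0397), and in the last of these Psmb9 did not (0.0706).

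Tap1, which shares its promoter with Psmb9, had 15.1, 12.6, 14.6 and 11.6 CPM in Colo201, against 11.4, 12, 11.6 and 9.73 CPM in HCT116. The groups overlapped, and the log2 fold change of 0.26 (SE 0.12) did not pass (adjusted p = 0.228, edgeR). The ratio of Psmb9 to Tap1 in FPKM, chosen for description after the values were seen and not tested, was 1.61 to 1.89 in Colo201 and 0.965 to 1.19 in HCT116. Tapbp had 85.8, 50.4, 50.7 and 72.2 CPM in Colo201, against 73.5, 45.2, 50.2 and 34.4 CPM in HCT116. It was the most scattered of the 3 loading genes within each line, and its log2 fold change was 0.37 (SE 0.24, adjusted p = 0.388, edgeR). Tapbp overlaps its neighbour Zbtb22 on the same strand over 3422 bases of the gene models, so reads there may have been split.

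None of the 3 class I chains passed between the lines in the fit of all 8 libraries. H2-D1 had 842, 884, 750 and 731 CPM in Colo201, against 856, 890, 735 and 800 CPM in HCT116, and its log2 fold change was -0.03 (SE 0.07, adjusted p = 0.802, edgeR). B2m had 1893, 1699, 2162 and 2168 CPM in Colo201, against 1537, 1645, 1718 and 2013 CPM in HCT116, and its log2 fold change was 0.19 (SE 0.08, adjusted p = 0.187, edgeR). In both genes the lines overlapped. H2-K1, H2-D1 and the listed class Ib heavy chain genes, 13 in all, summed to 2497 to 2776 CPM in Colo201 and 2387 to 2701 CPM in HCT116.

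H2-K1 had 56.9, 55.5, 51.9 and 129 CPM in Colo201 2L, 2R, 4L and 4R, against 114, 111, 95.7 and 119 CPM in HCT116 1L, 1R, 3L and 3R. In 3 Colo201 libraries it stood below every HCT116 library, and in Colo201 4R above all of them. With all 8 libraries the log2 fold change was -0.63 (SE 0.27, adjusted p = 0.212, edgeR), and without Colo201 4R it was -1.02 (adjusted p = 0.0101, edgeR), which passed. That fit removes the library whose own H2-K1 value ran against the other Colo201 libraries, so its pass is not separate evidence of a difference. With any other library left out the log2 fold change ran from -0.77 to -0.47 and did not pass (adjusted p = 0.23 to 0.399, edgeR). H2-K1 was 1.99 to 2.06% of the summed class I heavy chain CPM in Colo201 2L, 2R and 4L, 5.16% in Colo201 4R, and 4.01 to 4.77% in HCT116. H2-K2, a neighbouring class I gene named here after its values were seen, had 28.1, 24.8, 25.6 and 27.0 CPM in Colo201, against 20, 17.2, 17.2 and 16.3 CPM in HCT116, and its log2 value was 0.58 higher in Colo201 (SE 0.09, adjusted p = 0.0167, edgeR). It did not stand apart in Colo201 4R, and its call was lost without Colo201 4L (adjusted p = 0.0506), HCT116 1R (0.0565) or HCT116 3L (0.0609). H2-T23, a class Ib gene whose product presents leader peptides, was also named after its values were seen and did not pass between the lines. It had 31.0 CPM in Colo201 4R and 16.2 to 16.4 CPM in the other Colo201 libraries, against 10.3 to 14.6 CPM in HCT116. The summed class I heavy chain CPM was 2497 in Colo201 4R, the lowest of the Colo201 libraries. Heavy chain genes of this family share sequence, so reads may have been divided among them.

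The gene closest to H2-K1 in profile was Eno3, a comparison added after the H2-K1 values were seen. It had 6.05 CPM in Colo201 4R and 2.61 to 2.83 CPM in the other Colo201 libraries, against 3.96 to 5.21 CPM in HCT116. In other genes Colo201 4R stood apart from the libraries of both lines, whereas its H2-K1 value lay nearer those of HCT116. Krt19, a keratin of bile duct cells, was at 25.7 CPM there and at 0.50 to 2.17 CPM in the other libraries. The 7 bile duct markers, Krt19 among them, summed to 79.7 CPM in Colo201 4R and 42.2 to 51.1 CPM elsewhere. None was at 0 in all libraries. Krt19 alone made 25.7 CPM of the sum in Colo201 4R, so the sum is not a separate result. The same library had the lowest sums of Kupffer cell markers (430 CPM, against 531 to 738 CPM) and endothelial markers (223 CPM, against 272 to 422 CPM). The part of these cell types in the H2-K1 value was not tested. In bulk tissue fewer cells of a type and less RNA per cell cannot be told apart.

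**Figure D3:**
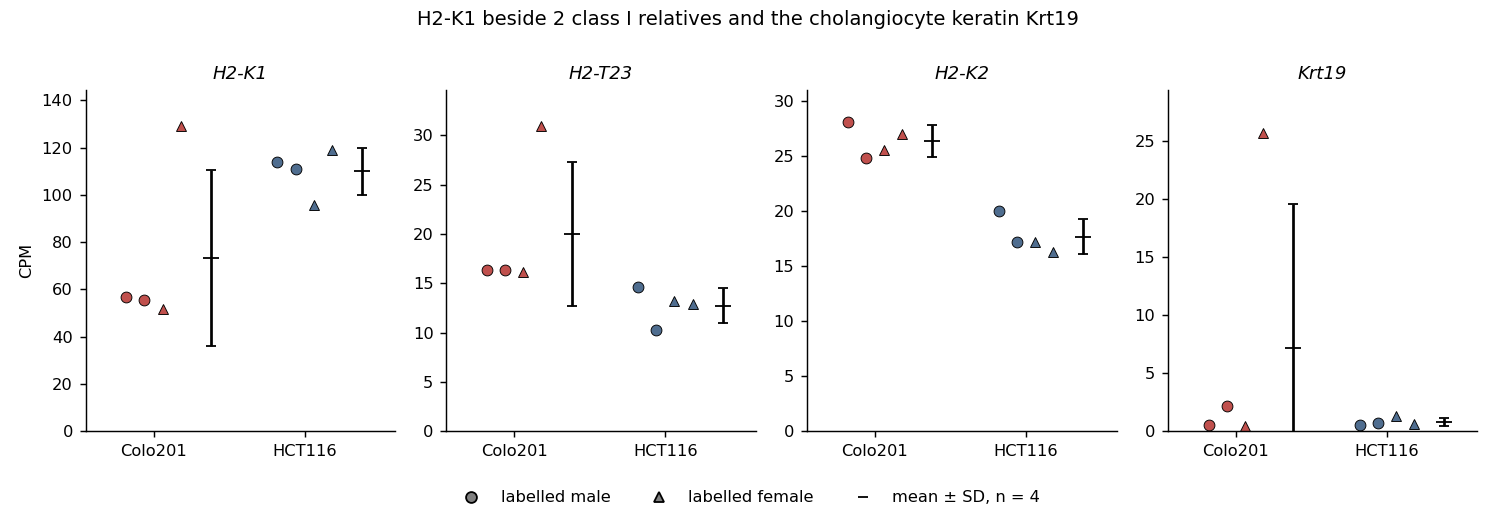
CPM of H2-K1, H2-T23, H2-K2 and Krt19 in each library (linear axes from 0), Colo201 left and HCT116 right, circles labelled male, triangles labelled female, bars mean ± SD of 4, the Krt19 bar ending at the axis. Colo201 4R is the high point of the first 2 panels and the last, and H2-K2 is higher in all Colo201 libraries.

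Nlrc5, which acts as the transactivator of class I genes, had 13.0, 20, 15.5 and 15.7 CPM in Colo201, against 24.5, 21.8, 20.8 and 16.8 CPM in HCT116. Only Colo201 2R and HCT116 3R crossed between the groups, and the log2 fold change of -0.38 (SE 0.15) did not pass (adjusted p = 0.17, edgeR). Its sign was opposite to those of Psmb9 and Tap2.

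**Figure D4:**
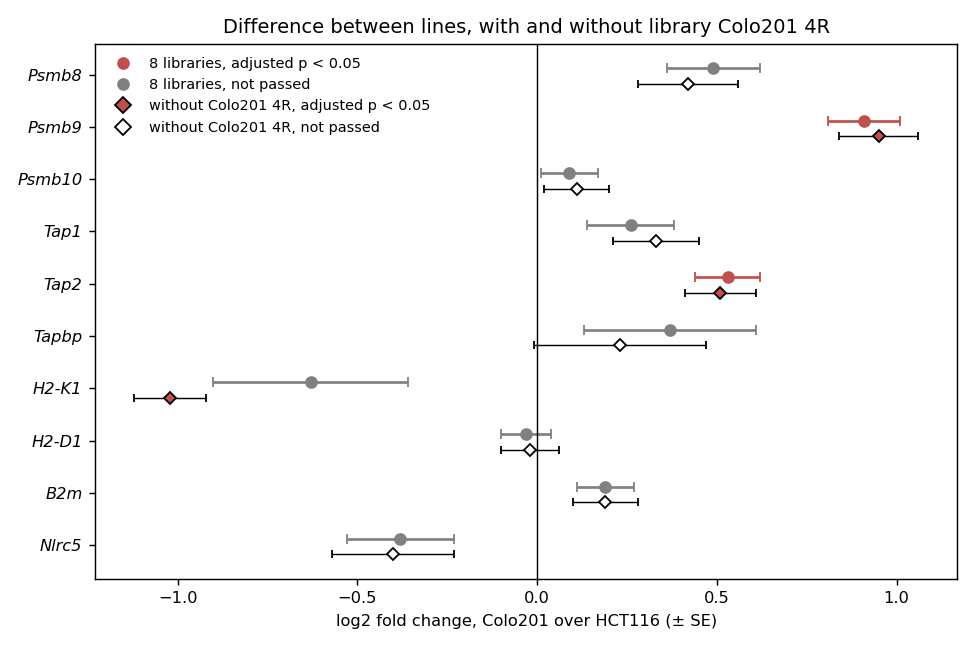
Log2 fold change (Colo201 over HCT116, edgeR) of the 10 genes with ± SE, circles with all 8 libraries and diamonds without Colo201 4R, red where the adjusted p is under 0.05. Psmb9 at 0.91 and Tap2 at 0.53 pass with and without Colo201 4R, and H2-K1 passes only without it, at -1.02. Colo201 4R stands apart by its own H2-K1 value, so the pass of H2-K1 is not a separate test.

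No interaction of line with sex label was called in the 10 genes (edgeR, 0 of 10 at an adjusted p under 0.05 and 0 at an unadjusted p under 0.05, 0 in DESeq2 and 0 in limma voom), where 0.0309% of all genes were called and 3.99% had such an unadjusted p. Within libraries labelled male 0 members were called by edgeR (0.272% of all genes) and within those labelled female 1, Psmb9 (0.642%). Each of these contrasts sets 1 title number against 1, so line cannot be told apart from title number there. The interaction rests on the same title numbers. H2-K1 had the widest gap between the 2 labels, with a log2 fold change of -1.0 among libraries labelled male (adjusted p = 0.287, edgeR) and -0.25 among those labelled female, which include Colo201 4R (adjusted p = 0.788, edgeR). The second value was -1.04 without Colo201 4R (adjusted p = 0.0906, edgeR) and 0.26 without Colo201 4L (adjusted p = 0.645, edgeR), so 1 library set its size and its sign.

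Between the sex labels, 0 of 10 members were called by edgeR, with 4 at an unadjusted p under 0.05 and 0 in DESeq2 or limma voom, where 4.6% of all genes were called and 19.3% had such an unadjusted p. The log2 fold changes of libraries labelled male over those labelled female ran between -0.31 for H2-K1 and 0.32 for Tapbp. H2-D1 averaged 868 ± 22.6 CPM in libraries labelled male and 754 ± 31.8 CPM in those labelled female, and Psmb10 38.7 ± 0.558 CPM and 33.8 ± 2.68 CPM in the same order (SD, n = 4 each). These were the 2 members whose libraries did not overlap between the labels, against 10.2% of all genes, and neither passed (edgeR adjusted p = 0.141 for H2-D1 and 0.218 for Psmb10). In the related lists the calls were 1 of 14 constitutive 20S subunits, 1 of 9 loading partners and peptidases and 2 of 9 class II genes. They were also 1 of 9 interferon transcription factors, 1 of 22 interferon-gamma-induced genes, 1 of 31 type I interferon-induced genes and 0 in each other list. At the 4.6% called over all genes, lists of this size hold few calls or none. Among these calls, the constitutive subunit Psmb5 was lower in libraries labelled male, at 38.8 ± 4.74 CPM against 54.6 ± 2.60 CPM in those labelled female (log2 fold change -0.50, SE 0.10, adjusted p = 0.027, edgeR). The interferon-induced GTPase Gbp3 was higher, at 10.4 ± 1.37 CPM in libraries labelled male against 3.96 ± 0.444 CPM in those labelled female (1.40, SE 0.15, adjusted p = 0.00154, edgeR). Ctss, a protease of class II presentation, was also higher (0.66, adjusted p = 0.0116), and the peptidase Lap3 (-0.64, adjusted p = 0.00963) and the antiviral GTPase Mx2 (-0.76, adjusted p = 0.0111) were lower. Cd74, the class II invariant chain (1.07, adjusted p = 0.0454), and the myeloid factor Irf8 (0.75, adjusted p = 0.0331) were called higher too. Psmb5, Cd74 and Irf8 were each lost when any of several single libraries was left out, with adjusted p of up to 0.0867, 0.114 and 0.107. Beside these, endothelial markers summed to 353 to 422 CPM in libraries labelled male and, labelled female, to 223 to 294 CPM, with 6 of 10 called. Kupffer cell markers summed to 649 to 738 CPM where labelled male and 430 to 623 CPM where labelled female, with 2 of 13 called. The sums of 4 other lists also separated the labels. Hepatocyte markers summed to 144322 to 182999 CPM where labelled male and 117946 to 143761 CPM where labelled female, and neutrophil markers to 3.99 to 6.75 CPM where labelled male and 1.48 to 3.45 CPM where labelled female. Natural killer cell markers summed to 1.43 to 2.35 CPM where labelled male and 0.612 to 1.23 CPM where labelled female, and B cell markers to 1.90 to 2.63 CPM where labelled male and 4.71 to 9.98 CPM where labelled female. Outside the endothelial and Kupffer cell lists, the markers called were Alb (0.42), the immunoglobulin chain Ighm (-2.22) and the erythroid enzyme Alas2 (-2.93). Their part in these differences was not tested.

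The other genes of the pathway were read from 10 lists of 146 genes. Between the lines 5.73% of all genes tested were called, and at that share lists of this size hold few calls or none. None of the 14 subunits of the constitutive 20S proteasome passed, with log2 fold changes of -0.13 to 0.15 and a median of -0.0046. None of 9 activator and assembly genes passed, among them Psme1 (-0.08, adjusted p = 0.548) and Psme2 (0.12, adjusted p = 0.487), the interferon-inducible cap of the proteasome. Of 9 loading partners and peptidases, 1 was higher: Calr, the chaperone calreticulin of the loading complex. It had 731, 625, 827 and 741 CPM in Colo201, against 439, 466, 522 and 581 CPM in HCT116, with no overlap (log2 fold change 0.55, SE 0.09, adjusted p = 0.0152, edgeR). Its call was lost in 4 cases, with an edgeR adjusted p of 0.0513 without Colo201 4L, 0.0549 without HCT116 1L, 0.0509 without 1R and 0.0609 without 3L. None of 16 class Ib and class I-like genes passed (median 0.024), nor did any of 9 tested class II genes of 12 listed (median 0.43).

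The interferon signalling genes gave 0 calls among 9 tested ligands, receptors and kinases of 13 listed (median 0.18), 0 among 9 transcription factors (median 0.01) and 0 among 10 factors that act at class I promoters (median 0.19). Over all genes tested the share called was 5.73%. Irf1, which drives many interferon-gamma targets, averaged 26.7 ± 3.23 CPM in Colo201 and 33.5 ± 2.97 CPM in HCT116 (log2 fold change -0.33, adjusted p = 0.116, edgeR). Ifng was at 0 in all 8 libraries, which allows up to 12 estimated counts, or 0.183 to 0.196 CPM, if a fragment is taken as 4 counts. This floor covers counting error only.

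Of 22 tested interferon-gamma-induced GTPases and chemokines, 1 was higher and 0 lower (median 0.20), and of 31 type I interferon-induced genes 0 were higher and 1 lower (median 0.11). Over all genes tested 2.85% were higher and 2.88% lower. The higher gene was Iigp1, an immunity-related GTPase, with 386, 388, 370 and 382 CPM in Colo201, against 256, 269, 329 and 330 CPM in HCT116 (log2 fold change 0.38, SE 0.09, adjusted p = 0.0492, edgeR). The lines did not overlap, but the call was lost with any 1 library left out (adjusted p = 0.0614 to 0.135). The lower gene was Mx2, with 4.68, 5.73, 9.49 and 10 CPM in Colo201, against 10.5, 11, 17.9 and 15.1 CPM in HCT116 (log2 fold change -0.90, SE 0.12, adjusted p = 0.00923, edgeR). Its levels were also lower in the libraries labelled male of each line.

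**Figure D5:**
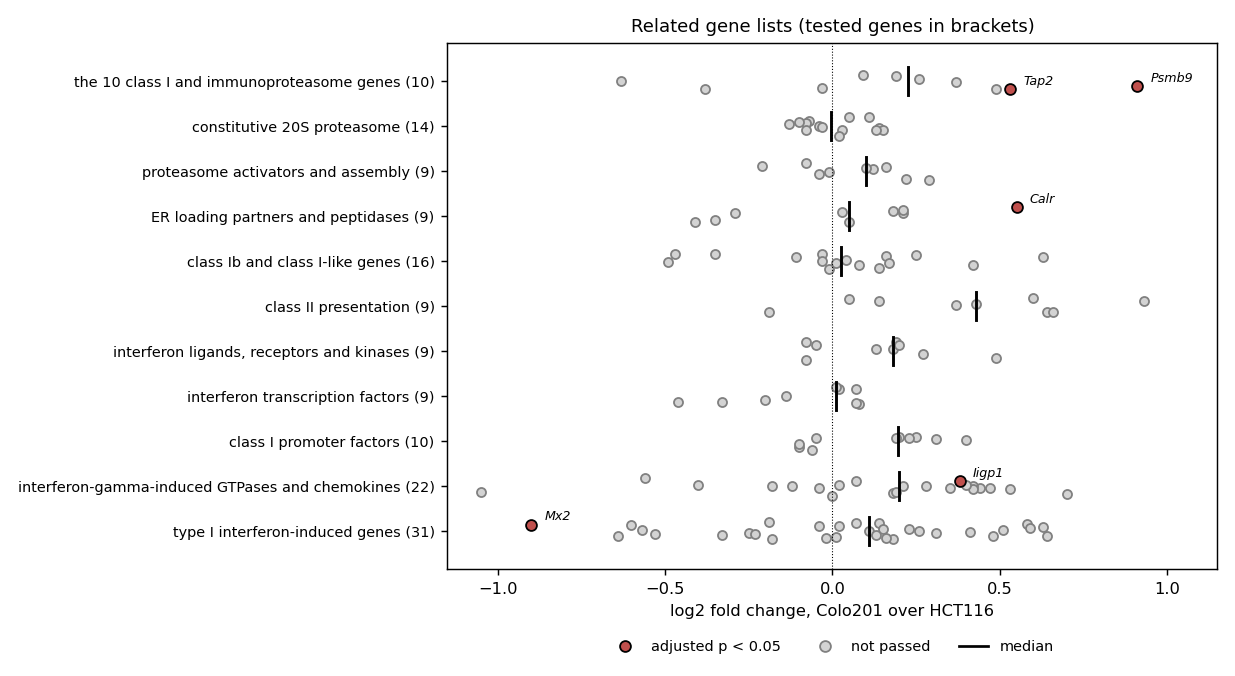
Log2 fold change (Colo201 over HCT116, edgeR) of each tested gene of the 10 members and of 10 related lists, red where the adjusted p is under 0.05, with a black line at each list's median. Outside the members, Calr and Iigp1 are called higher and Mx2 lower, and the constitutive 20S subunits lie between -0.13 and 0.15.

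Beside the 2 called members, the summed markers of each cell type overlapped between the lines, though single markers were called. Over all genes tested 5.73% were called. Kupffer cell markers summed to 430 to 738 CPM in Colo201 and 531 to 719 CPM in HCT116, with all 13 detected and 0 of 13 called. Endothelial markers summed to 223 to 393 CPM in Colo201 and 272 to 422 CPM in HCT116, dendritic cell markers to 4.30 to 9.67 CPM in Colo201 and 5.14 to 9.22 CPM in HCT116, and the detected T cell markers to 1.32 to 2.04 CPM in Colo201 and 0.936 to 2.61 CPM in HCT116. Of 7 hepatocyte markers 2 were called higher in Colo201, Apoa1 and Trf, and 0 lower, with 5 log2 fold changes positive and 2 negative, from 0.50 down to -0.57. Of 8 stellate cell markers 1 was called higher, Reln, with means of 104 ± 13.2 CPM in Colo201 and 56.6 ± 12.4 CPM in HCT116 (SD, n = 4 each, log2 fold change 0.88, adjusted p = 0.0181, edgeR), while the list's sums were 251 to 262 CPM in Colo201 and 186 to 274 CPM in HCT116. The part of these cell types in the differences of Psmb9 and Tap2 was not tested.

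Along chromosome 17 between Tapbp and H2-D1, at 33915899 to 35267499, a span of 1.35 Mb, 76 other genes were tested. Of these 3 were higher in Colo201, Apom (0.83), H2-K2 (0.58) and Nelfe (0.46), and 1 was lower, Stk19 (-0.75), with a median of 0.11 over the 76. These 4 are 5.26% of the 76, near the 5.73% called over all genes tested. Of these 4, Apom passed with any 1 library left out (adjusted p = 0.0117 to 0.0348), and the other 3 did not pass throughout, with an adjusted p of up to 0.0609 for H2-K2, 0.0758 for Nelfe and 0.128 for Stk19. The genes whose profile over the 8 libraries lay closest to that of Psmb9, by root mean square difference of centred log2 CPM over 12715 genes, were Apom (0.072), Fam20a (0.105), Itga3 (0.112), Agxt (0.114) and Akr1b3 (0.130). Among the members, Tap2 (0.202) and Psmb8 (0.278) were nearest to Psmb9 and H2-K1 (0.92) was farthest. Among the genes closest to the mean profile of the 10 genes were Aga (0.046), Numb (0.057), Atxn7l3b (0.059) and Csnk1d (0.060).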

How the data were processed

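The deposited estimated counts were whole numbers per gene, and the deposited FPKM were the authors' values per gene length. The tools were HISAT2 and StringTie and the build GRCm38 (mm10), per the submitters' processing notes; versions, annotation and strand setting: not given in the sources used here. Per the labels' protocols the kit was stranded TruSeq mRNA. Among counts of 1 to 16, 43.9 to 45.0% were multiples of 4. Gene identifiers were matched to GENCODE vM21, with 55141 of 55401 matched; the 260 others held 0.0216 to 0.0343% of the counts.

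The 10 genes and all lists were chosen with earlier results of these data known. Counts were scaled by TMM (CPM are TMM-scaled), filtered by filterByExpr on line and tested with edgeR 4.0.16 in R 4.3.3, after the scripts were tested on simulated data. The line fit left 5 residual degrees of freedom. Named outside the 10 were listed genes that passed, 8 set genes and the closest profiles; a few of these are not reported here. Alternatives were DESeq2 1.42.0, limma 3.58.1, other scalings, filters and covariates, FPKM with a pseudocount of 1, counts divided by 4, libraries summed by title number, and each library left out; a filter on 4 combinations was added after seeing the data. No libraries were duplicates (chi-square per gene at least 69.89 over 28 pairs).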

Additional observations from a re-analysis of the deposited data

Results flagged for a closer look

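H2-K1 in Colo201 4R, at 129 CPM, stood far above the other 3 Colo201 libraries at 51.9 to 56.9 CPM, and its gap to them was larger than Dixon's critical value for 4 samples. Psme2, a subunit of the interferon-inducible proteasome cap, stood at 48.9 CPM in HCT116 3L, below the other 3 HCT116 libraries at 57.7 to 58.9 CPM, by the same criterion. Of 50 groups of 4 libraries examined, these were the 2 that passed, and chance alone passes about 1 in 20 groups.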

How the results depend on the processing

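No paired analysis was possible because the titles of the 2 lines share no replicate number. With all 8 libraries the lines differed in 928 genes and 2 members (Psmb9 and Tap2). Without sex label as a covariate 207 genes and 1 member (Psmb9) were called; with title numbers summed 0 genes (3443 at an unadjusted p under 0.05) and 0 members, a fit of 4 columns with 1 residual degree of freedom; with DESeq2 1981 genes and 3 members; with no filter 612 genes and 2 members. Leaving out 1 library gave 188 (without HCT116 3L) to 648 genes (without Colo201 4R) and 1 to 3 members. Within libraries labelled female, where edgeR called 1 member, DESeq2, limma voom and counts divided by 4 each called 2 (Psmb9 and Tap2), and leaving out any library left 0 to 0. Within libraries labelled male, where edgeR called 0, DESeq2 called 2 (H2-K1 and Psmb9). Over the 10 members, 5 contrasts and all alternatives, the sign turned in 24 of 890 values, 14 of them interactions, in 8 members, and no turned value passed. Among the values given above, H2-D1 between lines ran from -0.053 to 0.0021 with 1 library left out, H2-K1 between sex labels from -0.46 to 0.091 and the H2-K1 interaction from -0.043 to 1.26, where leaving out Colo201 4R turned the sign of both, and H2-K1 between lines among libraries labelled female from -1.04 to 0.26, the last without Colo201 4L. The cause was not tested where none is named. The filter on 4 combinations of line and sex label, chosen after seeing the data, called 845 of 17669 genes and the same 2 members. Limits are the 4 title numbers behind the 8 libraries, the reversed sex labels, unknown strand setting, bulk tissue and a reference of another H2 haplotype.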
